A study of Rattus norvegicus with 12 samples.

Results

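The genes described here are the receptor activator of NF-kappaB ligand (RANKL) axis and a set of osteoclast genes: Tnfsf11, Tnfrsf11a, Tnfrsf11b, Acp5, Ocstamp, Dcstamp, Nfatc1 and Calcr. They were taken by their symbol from the 2 deposited gene tables, which hold 18616 and 19355 genes and 20400 gene IDs between them. Of the 8 genes, 5 were listed, all 5 of them in the first table and 4 in the second. Dcstamp, Nfatc1 and Calcr were not analysed here, and Ocstamp was measured in the first table only.

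RNA sequencing was done on 12 rat libraries in 4 groups of 3 replicates, all labelled as wild-type bone marrow mesenchymal stem cells (BMSCs) in DMEM-LG based chondrogenic induction medium. BMSC-CT cells received connective tissue growth factor (CTGF) for a week and then TGF-β1, a pair of factors that drives a fibrotic state, and BMSC-C cells were their controls. BF-D cells were fibrotic BMSCs, called induced fibrotic chondrocytes in the series' design, given docetaxel, a drug that stabilises microtubules, and BF-C cells were the same kind of cell without it. The labels give no dose or time for docetaxel, leave out how the BF cells were produced and whether replicates came from separate cultures, so p-values measure only the spread between these samples. The 2 tables were normalized separately, so BMSC-CT was tested against BMSC-C and BF-D against BF-C, and levels across the tables are a description.

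RANKL, the product of Tnfsf11, is made by stromal cells, osteoblasts and osteocytes. It binds its receptor RANK, the product of Tnfrsf11a, on precursors of the monocyte and macrophage lineage, and osteoprotegerin, the secreted product of Tnfrsf11b, is a decoy that takes RANKL up before it reaches RANK. RANK acts through TRAF6, NF-kappaB, c-Fos and calcium signals that turn on NFATc1, the factor that leads osteoclast formation. Late genes of this program include Dcstamp and Ocstamp, needed for the fusion of precursors, Acp5, the tartrate-resistant acid phosphatase used as an osteoclast stain, and Calcr, the calcitonin receptor.

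Promoter sequences were at hand for 4 of the 8 genes, and those of Acp5 and Ocstamp are shown because these 2 osteoclast genes lay on opposite sides of the BMSC comparison. Both come from RefSeq on GRCr8 and run from 250 bases before to 50 bases after a start site, on the minus strand, at chr8:28943880-28944179 for the second listed start of Acp5 and chr3:174560858-174561157 for Ocstamp. In Acp5 the capitals mark letters that match an M-box, the kind of element through which MITF and TFE3 act on this gene in mouse. In Ocstamp they mark an NFAT core read on the opposite strand.
Acp5 second start: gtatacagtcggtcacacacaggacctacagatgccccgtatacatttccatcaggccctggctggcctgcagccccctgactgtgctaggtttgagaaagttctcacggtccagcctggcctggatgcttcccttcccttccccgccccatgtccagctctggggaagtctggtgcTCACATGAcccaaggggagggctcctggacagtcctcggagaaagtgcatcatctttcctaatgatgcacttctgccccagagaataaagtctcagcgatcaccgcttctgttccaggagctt
Ocstamp: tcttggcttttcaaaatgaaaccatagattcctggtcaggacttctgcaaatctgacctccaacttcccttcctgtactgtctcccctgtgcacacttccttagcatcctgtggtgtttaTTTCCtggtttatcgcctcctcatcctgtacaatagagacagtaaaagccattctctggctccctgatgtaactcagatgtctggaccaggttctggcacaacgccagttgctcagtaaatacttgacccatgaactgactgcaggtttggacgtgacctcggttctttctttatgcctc
The M-box was searched as TCATGTGA on both strands, and the printed TCACATGA is its opposite strand. It was found at position -73 from the second Acp5 start, not in the window of the first Acp5 start (chr8:28945881-28946180) and not in that of Ocstamp, and 1.16% of 33469 promoters of 300 bases hold it. The NFAT core GGAAA stood at position -130 in Ocstamp, and 62.7% of promoters hold it. The second Acp5 window holds 2 such cores in lower case, the first at -205. The AP-1 site TGANTCA (7.33% of promoters) and the PU.1 core GAGGAA (27.6%) were in neither Acp5 window nor in that of Ocstamp. A match describes letters only.

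Library totals ran between 15580310 and 19870047 reads, and a read was worth 0.813 to 1.61 normalized counts. BMSC-CT replicate 3 stood apart: 14621 genes had reads there against at least 16100 in the other BMSC libraries, 13.7% of its reads were of ribosomal protein genes, and its deviation from the other libraries fell with gene length (Spearman's rho -0.44 across genes). BMSC-CT replicates 1 and 2 leaned the same way, with rho of 0.16 and -0.06, against 0.25 to 0.34 in BMSC-C. They had 16443 and 16100 genes with reads, against at least 16952 in BMSC-C. Ribosomal protein genes held 4.83% and 5.93% of their reads, against 3.76% to 4.80% in BMSC-C. Leaving out replicate 3 thus did not remove this difference between the groups, and its part in the results was not tested. BF-D replicate 2 had a slope similar to that of BMSC-CT replicate 3 (rho -0.50). Markers were checked against the labels. The summed share of 10 mesenchymal stem cell markers was 0.116% to 0.288% of reads in BMSC-CT, 0.464% to 0.538% in BMSC-C, 0.617% to 0.670% in BF-D and 0.676% to 0.680% in BF-C. Macrophage markers, of which 15 of 17 were listed in the BMSC table (all but Cx3cr1 and Marco), summed to 0.969% to 1.33% in BMSC-CT and 0.894% to 1.04% in BMSC-C. In BF, 11 of the 17 were listed, without Cd163, Cx3cr1, Marco and the C1q genes, at 0.0058% to 0.0064% in BF-D and 0.0041% to 0.0044% in BF-C. The BMSC libraries thus carried more macrophage marker RNA than mesenchymal marker RNA, which goes against their label, while the BF libraries did not. Osteoblast markers, which mark a source of RANKL and osteoprotegerin, summed to 0.495% to 0.924% in BMSC-CT, 0.198% to 0.229% in BMSC-C, 3.53% to 4.19% in BF-D and 4.67% to 4.76% in BF-C. In BMSC-CT against BMSC-C 3 of them rose (Alpl, Col1a1 and Spp1) and Runx2 fell, with Ibsp, Dmp1, Phex and Sost not listed or at 0. Bglap was near 0 as well, with 0, 1 and 0 reads in BMSC-CT and 3, 4 and 0 in BMSC-C. In BF-D against BF-C Spp1 rose. Dendritic cell markers summed to 0.0040% to 0.0084% in BMSC-CT and 0.0114% to 0.0158% in BMSC-C, and 3 of them fell in BMSC-CT (Ccr7, Cd74 and Ciita). Of chondrocyte markers 1 rose (Col11a1) and of lymphocyte markers 2 (Cd8a and Lck), and Col2a1, Cd3e, Cd3d and Cd3g were not listed or at 0 in BMSC. The part of these cell types in the results was not tested. In bulk RNA, fewer cells of a type and less RNA per cell cannot be told apart.

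CTGF and TGF-β1 treatment went with less osteoprotegerin RNA and more Acp5 RNA, while RNA of the ligand and its receptor was scarce in both groups. Of the 5 genes tested in BMSC-CT against BMSC-C, Acp5 rose, Tnfrsf11b fell and the others did not pass (limma on log2(normalized count + 1), Benjamini-Hochberg adjusted p under 0.05). In this comparison 18.6% of all 16818 genes tested passed, 7.7% higher and 10.9% lower, so 2 of 5 genes is too small a number to set against the background. The median log2 fold change of all genes was -0.15, and scaling by total reads moved it to -0.55 and the split of calls from 1295 higher and 1839 lower to 790 and 1984.

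Tnfsf11 (ENSRNOG00000049547 in the BMSC table), the ligand, had 0 reads in every BMSC-CT library, and 18, 0 and 0 reads in the BMSC-C libraries. The gene was thus seen in a single library, at 14.6 normalized counts. A count of 0 allows up to 3 reads, below the 18 of that library. The BMSC-C libraries, with 17046056 to 17920362 reads each, thus differed among themselves. The group difference did not pass (adjusted p = 0.397, limma).

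Tnfrsf11a (ENSRNOG00000015615), which encodes RANK, had 6, 1 and 0 reads in BMSC-CT, against 10, 7 and 3 reads in BMSC-C. These correspond to 5.43, 1.06 and 0 normalized counts in BMSC-CT and 8.13, 5.92 and 2.60 in BMSC-C, and the groups overlapped. The log2 difference of -1.37 had a standard error (SE) of 0.80 and did not pass (adjusted p = 0.240, limma).

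Tnfrsf11b (ENSRNOG00000008336), which encodes osteoprotegerin, had 67.8, 69.6 and 37.0 normalized counts in BMSC-CT, against 278, 227 and 189 in BMSC-C. All 3 treated libraries lay below all 3 controls, with means of 58.2 ± 18.3 in BMSC-CT and 231 ± 44.7 in BMSC-C (SD, n = 3 each). Its expression fell by 2.01 log2 units (SE 0.36, adjusted p = 0.0144, limma). Without BMSC-CT replicate 3 it fell by 1.72 log2 units (adjusted p = 0.000681). Leaving out any 1 control library ended the call, with adjusted p of 0.0845, 0.0843 and 0.0504 without BMSC-C replicates 1, 2 and 3. Over all genes these fits called 517, 487 and 796 lower, against 1839 with all 6 libraries.

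Acp5 (ENSRNOG00000046261) had 993, 1406 and 2842 normalized counts in BMSC-CT, against 374, 442 and 482 in BMSC-C. Every treated library lay above every control, but the treated ones spread widely, with means of 1747 ± 971 in BMSC-CT and 432 ± 54.5 in BMSC-C (SD, n = 3 each). Acp5 rose 3.67-fold (log2 fold change 1.88, SE 0.40, adjusted p = 0.0238, limma). Its highest value was in BMSC-CT replicate 3, and Acp5 is short at 1549 bases. With that library left out the log2 fold change was 1.46 (adjusted p = 0.000702), and after removal of the trend on gene length from all libraries it was 1.67 (adjusted p = 0.00954). The call ended without BMSC-CT replicate 2 (adjusted p = 0.0697) and without BMSC-C replicates 1, 2 or 3 (0.109, 0.100 and 0.0744). Over all genes these fits called 403, 283, 249 and 462 higher, against 1295 with all 6 libraries.

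Ocstamp (ENSRNOG00000019110), a membrane protein needed for osteoclast fusion, lay on the other side without passing. It had 7.23, 3.17 and 0 normalized counts in BMSC-CT, against 25.2, 16.9 and 20.8 in BMSC-C, from 8, 3 and 0 reads in BMSC-CT and 31, 20 and 24 reads in BMSC-C. The groups did not overlap, yet the log2 difference of -2.74 (SE 0.81) did not pass (adjusted p = 0.0598, limma). It passed with DESeq2 on the recovered reads (adjusted p = 0.0136, a call that DESeq2 made for 29% of genes). In limma it passed with a pseudocount of 5 (adjusted p = 0.0273) and after quantile normalization (0.0479). Those fits called 1991 and 1794 of 16818 genes lower. Ocstamp also passed in limma when BMSC-CT replicate 1 (0.0340) or replicate 3 (0.0124) was left out. Those 2 fits called 2155 of 16838 and 3935 of 16742 genes lower. In the authors' deposited table the adjusted p-values were 3.34e-06 for Tnfrsf11b, 0.000171 for Acp5 and 0.0136 for Ocstamp, which are the values DESeq2 gave here on the recovered reads and so no separate support.

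**Figure D1:**
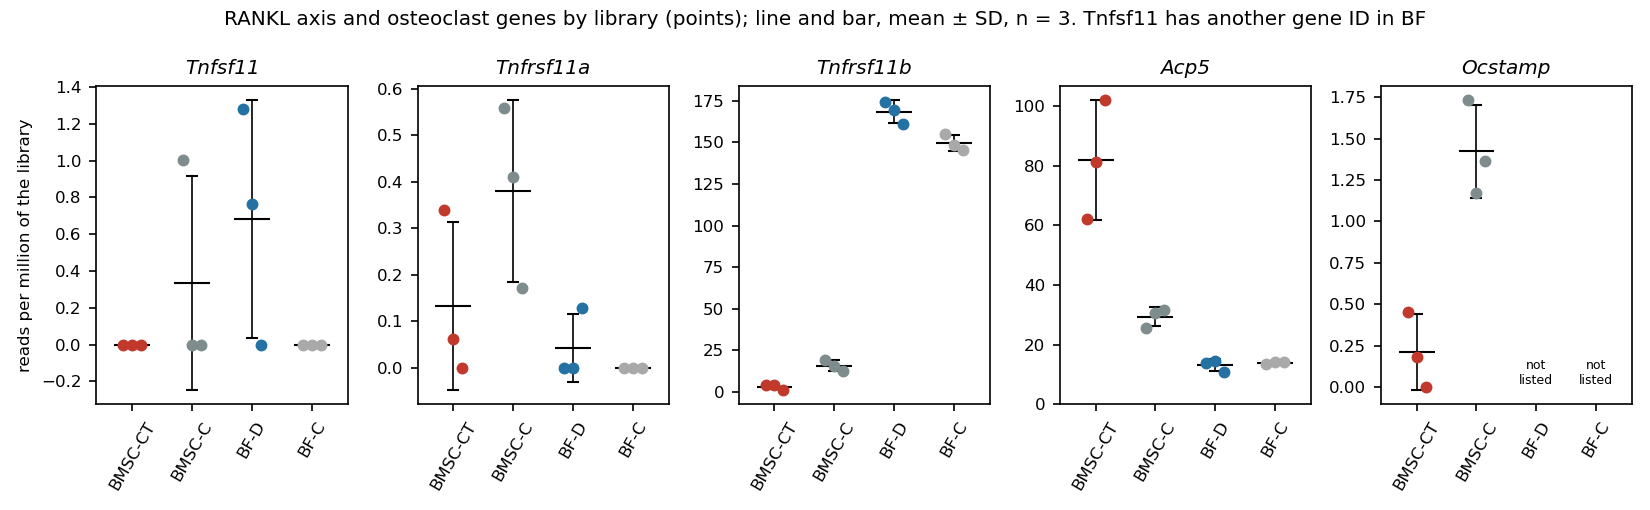
CPM (reads of the gene scaled to a common library total) of 5 genes in each of the 12 libraries, with the mean and SD of each group of 3; Tnfsf11 carries different gene IDs in the BMSC and BF tables. Acp5 is highest in BMSC-CT (62.1 to 102), Tnfrsf11b is highest in the BF groups (145 to 175), and Tnfsf11 and Tnfrsf11a stay under 1.3 CPM everywhere.

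**Figure D2:**
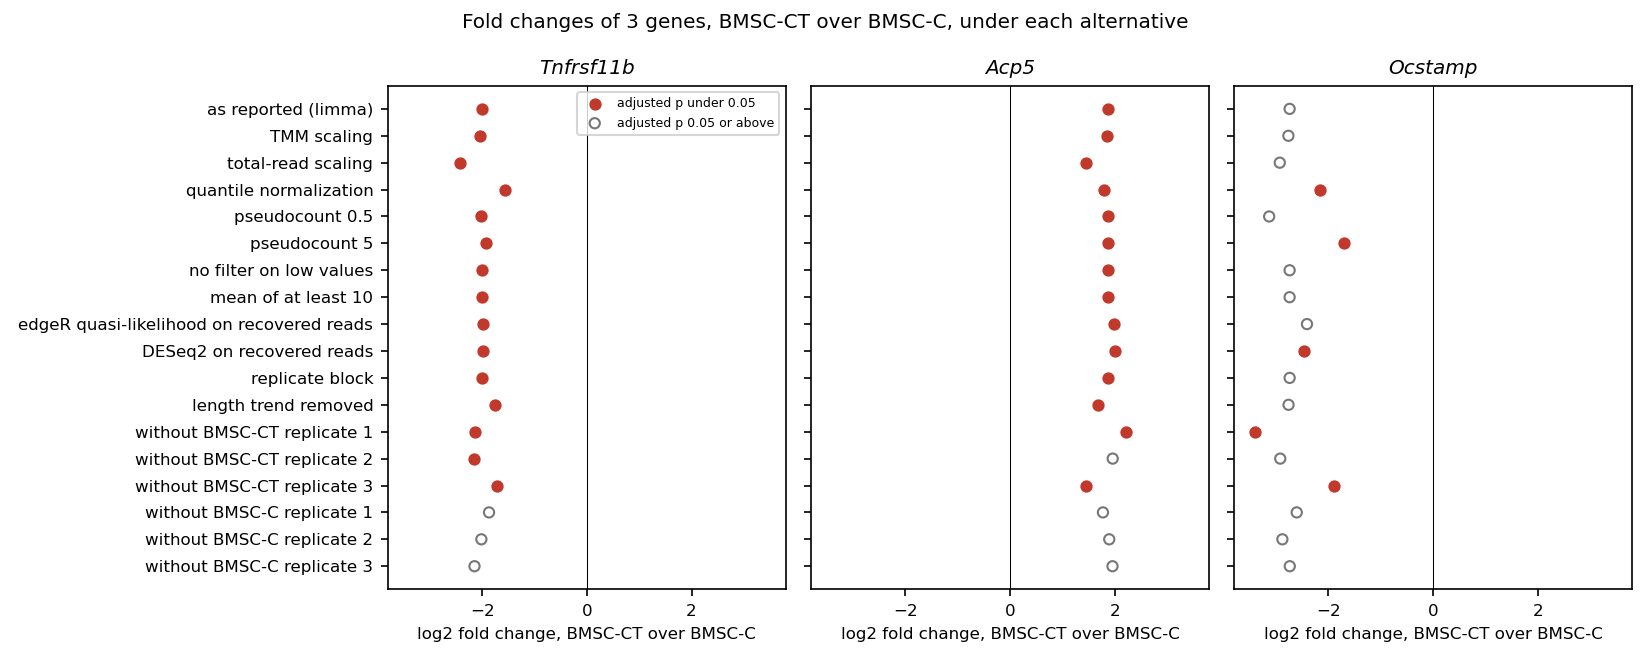
Log2 fold change of Tnfrsf11b, Acp5 and Ocstamp in BMSC-CT over BMSC-C, as reported and under each alternative setting, with filled points for an adjusted p under 0.05. Tnfrsf11b stays between -2.42 and -1.55, Acp5 between 1.46 and 2.21 and Ocstamp between -3.41 and -1.70, while the calls come and go.

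Levels across the 4 groups are given as CPM, the reads of a gene scaled to a common library total, as a description. Tnfrsf11b was at 3.20 ± 1.62 in BMSC-CT, 15.7 ± 3.34 in BMSC-C, 168 ± 6.76 in BF-D and 150 ± 4.75 in BF-C (SD, n = 3 each). The order was BF-D, BF-C, BMSC-C, BMSC-CT, and no neighbours overlapped. Acp5 ran the other way, at 81.8 ± 20.0 in BMSC-CT, 29.3 ± 3.19 in BMSC-C, 13.0 ± 1.99 in BF-D and 13.9 ± 0.490 in BF-C. Only the 2 BF groups lay within each other's spread. Per kilobase of gene length, the mean Acp5 level was 52.8 RPKM (CPM per kilobase) in BMSC-CT, where Tnfrsf11b was at 1.10. In BMSC-C the same levels were 18.9 for Acp5 and 5.43 for Tnfrsf11b. In the BF groups the order of the 2 genes turned, with 8.39 for Acp5 and 58.1 for Tnfrsf11b in BF-D, and 8.97 for Acp5 and 51.6 for Tnfrsf11b in BF-C. Ocstamp was at 0.212 ± 0.227 CPM in BMSC-CT and 1.42 ± 0.283 in BMSC-C. Tnfrsf11a was at 0.133 ± 0.181 in BMSC-CT, 0.380 ± 0.196 in BMSC-C, 0.043 ± 0.074 in BF-D and 0 in BF-C.

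The genes with the most similar profile over the 6 BMSC libraries were found among 13025 genes by the root mean square difference of gene-centred log2(normalized count + 1). For Tnfrsf11b these were LOC100359912 (0.0851), Slit2 (0.0978), a secreted guidance ligand, and Plekha5 (0.101). For Acp5 they were B3gat3 (0.0543), an enzyme that builds the linker of glycosaminoglycan chains, Rhbdd3 (0.0951) and Meis3 (0.0990). For Ocstamp they were Flrt3 (0.141), Arhgap26 (0.157) and AABR07072602.1 (0.166). B3gat3, the nearest of all, was at 9428 ± 4646 normalized counts in BMSC-CT and 2408 ± 315 in BMSC-C (SD, n = 3 each).

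The genes that surround RANK signalling were described by 10 lists with 118 genes, of which 111 gene IDs were tested in the BMSC table. In BMSC-CT against BMSC-C, 17 were higher and 22 lower (limma, adjusted p under 0.05), with a median log2 fold change of -0.38 against -0.15 over all genes, where 7.7% were higher and 10.9% lower. Without BMSC-CT replicate 3 the counts were 33 higher and 37 lower, against 19.5% and 23.5% of all genes. The counts of each list below stand against these same shares, and no list was tested against them. Of the 39 calls, 12 held under all 17 alternatives: Csf1r and Tcirg1 among the higher genes, and Car2, Csf2, Fosl1, Il11, Il6, Mmp9, Prdm1, Ptgs2, Ramp3 and Wnt5a among the lower. Each of the other 27 was lost when at least 1 library was left out. The short list of the axis itself had 4 genes tested, with 0 higher and 1 lower, Tnfrsf11b, and a median of -1.44. Lgr4, another receptor for RANKL, had 93.1, 87.6 and 17.7 normalized counts in BMSC-CT and 154, 173 and 133 in BMSC-C and did not pass (adjusted p = 0.139), but without BMSC-CT replicate 3 it was lower and passed (adjusted p = 0.0223), which made 2 lower in the axis.

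**Figure D3:**
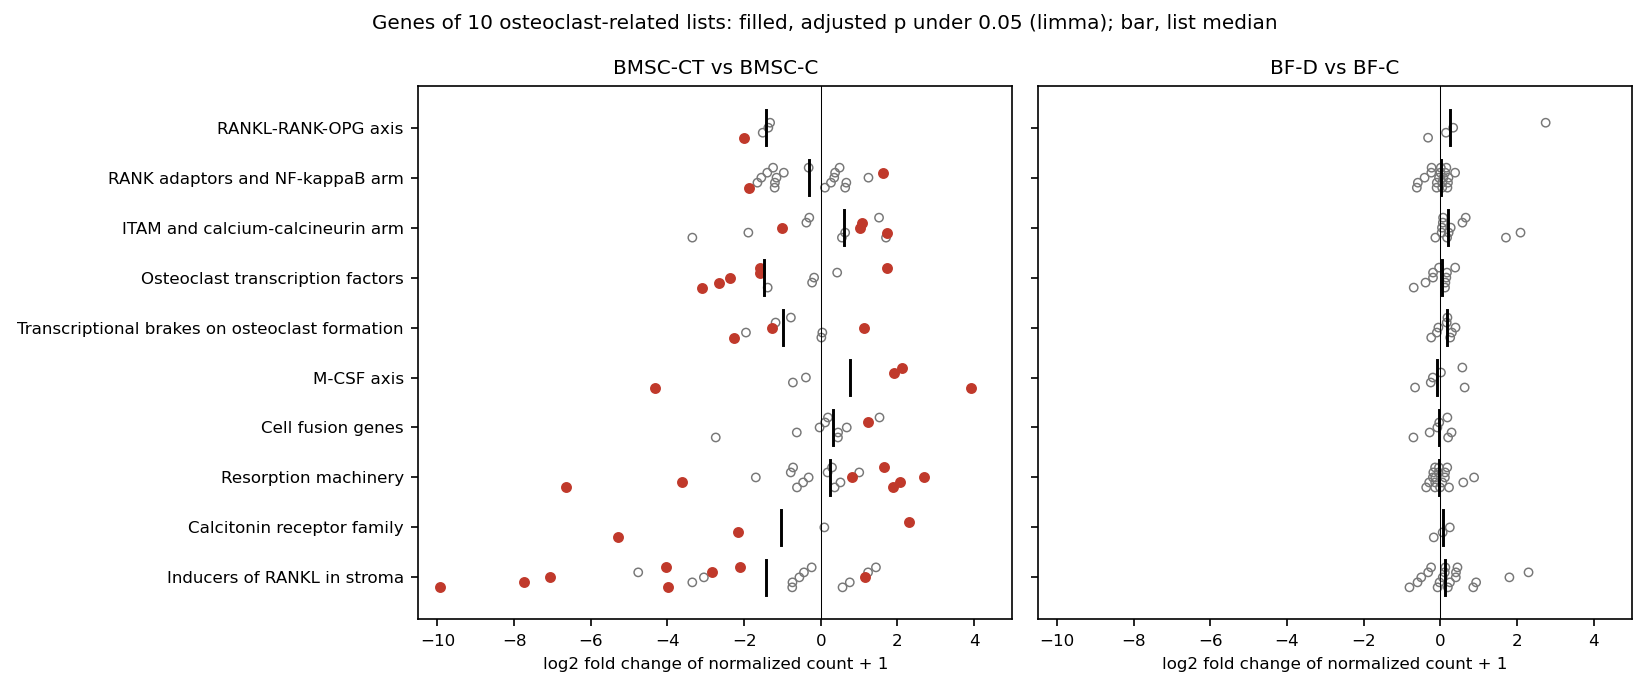
Log2 fold change of each tested gene of the 10 lists in BMSC-CT over BMSC-C (left) and BF-D over BF-C (right), with filled points for an adjusted p under 0.05 and a bar at the list's median. The BMSC panel holds 39 filled points, from -9.95 for Il11 to 3.92 for Il34, and the BF panel holds none.

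Among 19 RANK adaptors and NF-kappaB genes, 1 rose and 1 fell, with a median of -0.32. Sqstm1, which encodes p62, a scaffold of RANK signalling mutated in Paget disease of bone, had 45151, 51911 and 59403 normalized counts in BMSC-CT, against 14306, 16312 and 20295 in BMSC-C, and its lowest treated value exceeded the highest control (adjusted p = 0.00864, limma). Chuk, the kinase IKK-alpha of the non-canonical arm, fell by 1.89 log2 units. Traf6, the adaptor that RANK needs, had 92.2, 76.0 and 12.9 in BMSC-CT and 163, 107 and 101 in BMSC-C, and did not pass (adjusted p = 0.211). Sqstm1 did not pass after quantile normalization (adjusted p = 0.100), nor Chuk with total-read scaling (0.0634). Without BMSC-CT replicate 3 the counts were 3 higher and 4 lower.

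Among 12 genes of the co-stimulatory ITAM and calcium arm, 3 rose and 1 fell, with a median of 0.59. Fcer1g, one of the 2 ITAM adaptors of osteoclast precursors, had 7932, 10304 and 27305 normalized counts in BMSC-CT, against 3859, 3460 and 4689 in BMSC-C (log2 fold change 1.72). Syk, the kinase that docks on ITAMs, rose by 1.03 log2 units, and Plcg2, the phospholipase that starts the calcium signal, by 1.07. Ppp3r1, the regulatory subunit of calcineurin, fell by 1.01 log2 units. Tyrobp, the other ITAM adaptor, was 1.52 log2 units higher without passing (adjusted p = 0.0860), and so was Trem2, its partner receptor, at 1.70 (adjusted p = 0.0662). Syk and Plcg2 did not pass with total-read scaling (adjusted p = 0.304 and 0.183), and Fcer1g passed narrowly at 0.0480 and not with a pseudocount of 0.5 (0.0505). Ppp3r1 did not pass after removal of the length trend (0.0852), and without BMSC-CT replicate 3 the counts were 6 higher and 3 lower.

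Among the transcription factors of osteoclast formation, 1 of 10 rose and 5 fell, with a median of -1.49. Fosl1, an AP-1 protein, fell to 71.4, 76.0 and 67.6 normalized counts in BMSC-CT, against 628, 569 and 666 in BMSC-C. Fos, the AP-1 protein that osteoclasts cannot form without in mouse, had 16.3, 19.0 and 9.66 in BMSC-CT and 93.5, 95.6 and 54.6 in BMSC-C. Their log2 fold changes were -3.10 and -2.37. Prdm1, a repressor that takes down the brakes on osteoclast formation, fell by 2.66 log2 units, and Creb1, which works with NFATc1, by 1.59. Mitf, which in mouse acts on Acp5 through an M-box, had 339, 206 and 116 in BMSC-CT and 671, 674 and 490 in BMSC-C. Its log2 fold change was -1.59, and a link to Acp5 or to the letters shown above was not tested. Tfe3, a relative of Mitf, had 1348, 1383 and 161 in BMSC-CT and 747, 749 and 865 in BMSC-C and did not pass (adjusted p = 0.848). Spi1, which encodes PU.1, rose by 1.72 log2 units, with 4818, 6439 and 13432 in BMSC-CT and 1694, 2233 and 3066 in BMSC-C. Mitf did not pass with edgeR on the recovered reads (adjusted p = 0.0509) or total-read scaling (0.0652), nor Creb1 after quantile normalization (0.0589).

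Of 8 gene IDs of transcriptional brakes, 1 rose and 2 fell, with a median of -0.98. Irf8, which holds precursors back from becoming osteoclasts, had 423, 421 and 300 normalized counts in BMSC-CT, against 168, 159 and 185 in BMSC-C (log2 fold change 1.14). Bcl6, a repressor of osteoclast genes, fell by 1.28 log2 units. Rbpj is listed under 2 IDs: the one with few reads fell by 2.25 log2 units, and the one with many, at 1853 ± 1132 in BMSC-CT and 6034 ± 1344 in BMSC-C (SD, n = 3 each), did not pass (adjusted p = 0.0604). Irf8 did not pass with total-read scaling (adjusted p = 0.224), and without BMSC-CT replicate 3 the counts were 1 higher and 4 lower.

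Of 6 genes of the macrophage colony-stimulating factor axis, 3 rose and 1 fell, with a median of 0.76. Csf1r, the receptor that precursors need to survive, had 3283, 3839 and 2992 normalized counts in BMSC-CT, against 700, 812 and 807 in BMSC-C, so the groups were far apart (log2 fold change 2.12, SE 0.19, adjusted p = 0.00150, limma). Csf2ra, a GM-CSF receptor chain, rose by 1.91 log2 units. Il34, the other ligand of CSF1R, had 18.1, 28.5 and 56.4 in BMSC-CT and 4.06, 0.846 and 0 in BMSC-C. Csf2, which encodes GM-CSF, fell to 22.6, 23.2 and 40.3 in BMSC-CT, against 734, 396 and 650 in BMSC-C (log2 fold change -4.33, adjusted p = 0.00139). Csf1, the main ligand of CSF1R, had 3850, 4216 and 2942 in BMSC-CT and 5047, 4543 and 4674 in BMSC-C and did not pass (adjusted p = 0.207). Csf1r also belongs to the macrophage markers, of which 3 rose (Cd68, Csf1r and Lyz2) and 3 fell (Adgre1, Cd163 and Msr1). The part of macrophage content in the osteoclast genes was not tested.

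Among 10 fusion genes 1 rose, with a median of 0.32. Sirpa, a receptor for CD47 on cells of the macrophage lineage, had 13048, 13755 and 8203 normalized counts in BMSC-CT, against 4598, 4721 and 5326 in BMSC-C (log2 fold change 1.22). Atp6v0d2, a proton pump subunit that fusion requires in mouse, had 701, 661 and 1021 in BMSC-CT and 707, 693 and 654 in BMSC-C, with overlapping groups. Sirpa did not pass with total-read scaling or quantile normalization (adjusted p = 0.200 and 0.153), and without BMSC-CT replicate 3 the counts were 5 higher and 1 lower.

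Of 18 resorption genes, 5 rose, Acp5 among them, and 2 fell, with a median of 0.23. Over all genes 7.7% were higher and 10.9% lower. Tcirg1, the subunit of the proton pump that acidifies the resorption pit, had 6432, 8343 and 12831 normalized counts in BMSC-CT, against 1180, 1376 and 1575 in BMSC-C (log2 fold change 2.69, SE 0.29, adjusted p = 0.00265, limma). Ctsk, the collagen-cleaving cathepsin K, had 3972, 4076 and 7097 in BMSC-CT and 1437, 1658 and 1549 in BMSC-C (log2 fold change 1.65, adjusted p = 0.0109). Neither gene's groups overlapped. Ckb, the brain-type creatine kinase, rose by 2.06 log2 units and Slc4a2, the chloride and bicarbonate exchanger, by 0.81. Car2, the carbonic anhydrase that supplies protons, fell to 9.95, 3.17 and 8.05 in BMSC-CT, against 870, 684 and 695 in BMSC-C (log2 fold change -6.65, SE 0.44, adjusted p = 0.000619). Mmp9, a gelatinase that osteoclasts and many other cells make, fell to 2811, 3393 and 1884 in BMSC-CT, against 32898, 23242 and 43504 in BMSC-C (log2 fold change -3.62, adjusted p = 0.00157). Both falls left wide gaps between the groups. Itgb3, the integrin chain of the sealing zone, had 241, 261 and 19.3 in BMSC-CT and 170, 140 and 193 in BMSC-C and did not pass (adjusted p = 0.649), but without BMSC-CT replicate 3 it was 0.59 log2 units higher and passed (0.0441). Slc4a2 did not pass with total-read scaling (0.331), and without BMSC-CT replicate 3 the list had 9 higher and 3 lower.

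**Figure D4:**
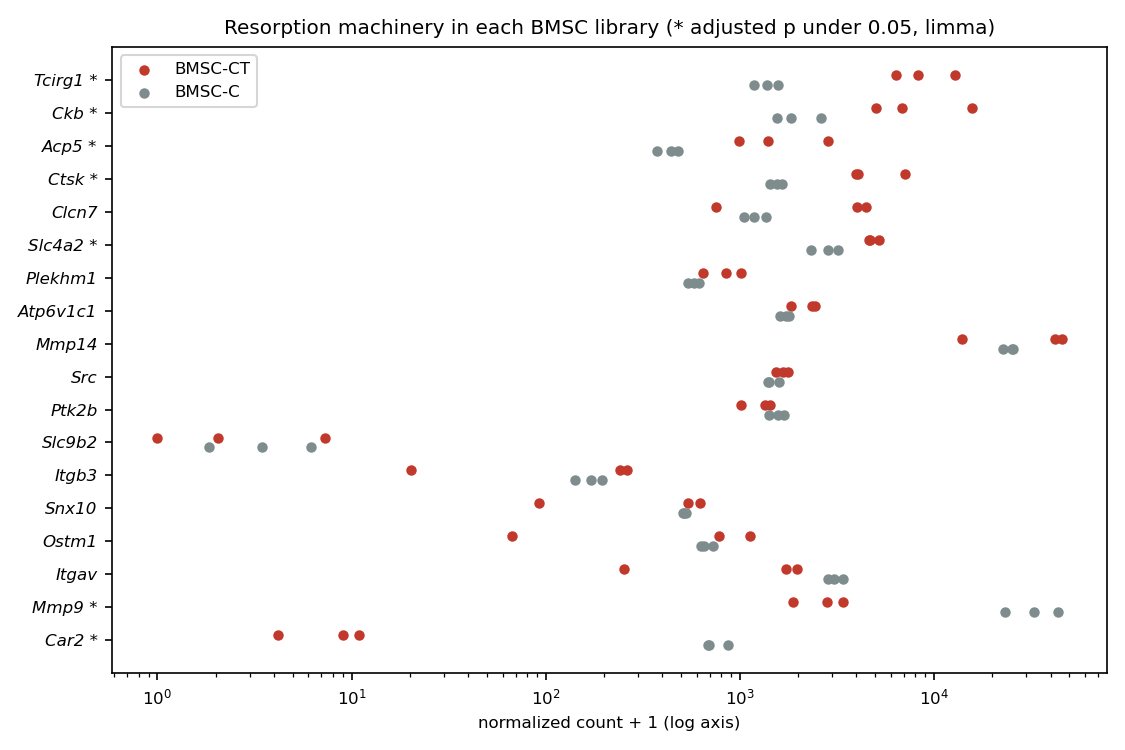
Normalized count plus 1 on a log axis for 18 resorption genes in the 3 BMSC-CT and 3 BMSC-C libraries, ordered by fold change, with an asterisk for an adjusted p under 0.05 (limma). Tcirg1, Ckb, Acp5, Ctsk and Slc4a2 lie to the right in BMSC-CT, Mmp9 and Car2 far to the left, and several genes have 1 BMSC-CT library far below the other two.

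In the calcitonin receptor family, where Calcr itself was not analysed, 1 of 4 genes rose and 2 fell, with a median of -1.04. Ramp3, a partner protein that turns the receptors into amylin or adrenomedullin receptors, had 14.5, 23.2 and 37.0 normalized counts in BMSC-CT, against 765, 954 and 1153 in BMSC-C (log2 fold change -5.29, adjusted p = 0.000871, limma). Calcrl, the calcitonin receptor-like receptor, fell by 2.17 log2 units. Ramp2 rose by 2.29 log2 units, with 32.6, 29.5 and 74.1 in BMSC-CT and 9.76, 7.61 and 6.07 in BMSC-C. Ramp1 was low in both groups, at 5.09 ± 4.24 in BMSC-CT and 3.94 ± 0.597 in BMSC-C (SD, n = 3 each).

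A list of signals known to raise RANKL in stromal cells also held their receptors, Ptgs2 and Wnt5a. Of its 20 gene IDs, 1 rose and 7 fell, with a median of -1.42. Il11, an IL-6 family cytokine, had 20.8, 11.6 and 6.44 normalized counts in BMSC-CT, against 13747, 10186 and 13999 in BMSC-C (log2 fold change -9.95, SE 0.41, adjusted p = 0.000165, limma). Il6 had 11.8, 33.8 and 25.8 in BMSC-CT, against 5497, 4562 and 4697 in BMSC-C (log2 fold change -7.75). Ptgs2, the inducible cyclooxygenase that makes prostaglandin precursors, had 246, 256 and 54.8 in BMSC-CT and 27106, 16849 and 18153 in BMSC-C (log2 fold change -7.05). For each of these genes the lowest control was many times the highest treated library. Wnt5a, which raises RANK in precursors through ROR2, fell by 3.99 log2 units, Lif by 4.03, Il1a by 2.84 and Ptger4, a prostaglandin E2 receptor, by 2.10. Ptger4 did not pass with total-read scaling (adjusted p = 0.0595) or after quantile normalization (0.0517), nor without BMSC-CT replicate 2 (0.0750) or any 1 of the BMSC-C libraries (0.126 to 0.160). Ptger2, another receptor for prostaglandin E2, rose by 1.14 log2 units and did not pass with total-read scaling (adjusted p = 0.204). Without BMSC-CT replicate 3 the counts were 3 higher and 12 lower.

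No gene of the axis passed the test in fibrotic cells given docetaxel. In BF-D against BF-C, 3 of the listed genes were tested and none passed (limma), against 0.0117% of 17076 genes tested, which is 2 genes. Unadjusted, 1 of the 3, Tnfsf11, had a p under 0.05, a level at which 3.26% of all genes were higher and 2.94% lower. It had reads in BF-D libraries only, so it met the filter through that group and could lie only on the higher side. For this reason 1 of 3 is not set against these shares. DESeq2, which called 0.362% of all genes, gave no adjusted p for Tnfsf11 and passed neither of the others, and edgeR, which called 0% and tested Tnfrsf11b and Acp5, passed neither.

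Tnfrsf11b had 2894, 2804 and 2646 normalized counts in BF-D, against 2605, 2499 and 2425 in BF-C. Every docetaxel library lay above every library without it, but by little: the means were 2781 ± 126 in BF-D and 2510 ± 90.7 in BF-C (SD, n = 3 each). The log2 difference of 0.15 (SE 0.08) did not pass (adjusted p = 0.706, limma). How many of all genes had groups apart in the same way was not counted, so the gap in Tnfrsf11b is a description only. Acp5 had 231, 238 and 176 in BF-D and 225, 238 and 237 in BF-C, with overlapping groups (log2 difference -0.13, SE 0.15, adjusted p = 0.780). Tnfsf11, under an ID (ENSRNOG00000009559) that the BMSC table does not list, had 20, 13 and 0 reads in BF-D and 0 in each BF-C library. It was seen in 2 of 3 docetaxel libraries and in none without the drug, and the log2 difference of 2.75 had an SE of 1.11 (adjusted p = 0.706, limma). Because its IDs differ, no Tnfsf11 level was compared between the tables. Tnfrsf11a had 2 reads in all, both in BF-D replicate 3, and was too low to test.

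None of 106 tested genes of the 10 lists passed in BF-D against BF-C with limma or, of 98 tested, with edgeR, while DESeq2 on the recovered reads called 3 higher and 0 lower. With p under 0.05 before adjustment, limma had 13 higher and 2 lower, where 3.26% and 2.94% of all genes were. The 13 count Tnfsf11, which met the filter through BF-D only and could lie only on the higher side. For this reason they are not read against these shares. Without BF-D replicate 2 limma called 7 higher and 2 lower, against 1.54% of all genes. The smallest adjusted p was that of Il11, which had 7675, 9434 and 8295 normalized counts in BF-D, against 4515, 4564 and 4882 in BF-C (log2 difference 0.86, SE 0.10, adjusted p = 0.145). Mmp9 had 105103, 106851 and 111915 in BF-D and 71312, 69894 and 72533 in BF-C (log2 difference 0.60, adjusted p = 0.231). Il1b, the inflammatory cytokine IL-1 beta, had 37.3, 55.3 and 44.0 in BF-D and 11.9, 9.61 and 15.7 in BF-C (log2 difference 1.80, adjusted p = 0.318). In all 3 genes the groups were apart. DESeq2 passed all 3, with adjusted p of 1.48e-08 for Il11, 4.46e-08 for Mmp9 and 0.00606 for Il1b. After removal of the length trend limma passed Il11 (adjusted p = 0.00911) and Mmp9 (0.0125), after quantile normalization it passed Il11 (0.0432), and with BF-D replicate 2 left out it passed Il11 and Mmp9 (8.18e-06 each) and Il1b (0.0478). Csf1r, Ctsk and Csf1 had overlapping groups. Csf1r had 13.04 ± 3.26 in BF-D and 15.96 ± 8.20 in BF-C, Ctsk had 2770 ± 528 in BF-D and 2512 ± 90.9 in BF-C, and Csf1 had 12243 ± 1140 in BF-D and 12071 ± 319 in BF-C (SD, n = 3 each).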

How the data were processed

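RNA was measured in 12 libraries, taken with RNeasy and made with NEBNext Ultra per the labels' protocols. Bowtie 0.12.2 and mm8 are named in the submitters' processing notes. As mm8 is a mouse build and the IDs are rat Ensembl IDs, no coordinates of the files are printed. Per the file headers the authors deposited normalized counts (unit signal), 1 value per gene and library, with their own log2 fold changes and p-values. Within a tolerance of 0.01, 100% of the normalized counts were whole reads divided by 1 factor per library, so reads were recovered. No column of samples was left unused (0). IDs with no symbol held 0.641% to 1.55% of reads and stayed in the tests.

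Each table was fitted on its own 6 libraries with limma 3.58.1 (R 4.3.3) on log2(normalized count + 1), for genes with a mean of at least 1, by group only, with Benjamini-Hochberg adjustment over all genes tested. Fold changes on this scale understate those of low genes. Alternatives were other scalings (TMM, total reads, quantile), pseudocounts of 0.5 and 5, no filter and a mean of at least 10, edgeR 4.0.16 and DESeq2 1.42.0 on recovered reads, the replicate number as a block, each library left out, and, chosen after seeing the data, removal of the trend on gene length. Tested on simulated data of the BMSC design with 16853 genes, limma recovered 1 of 67 genes at a 2-fold change, 13 of 67 at 4-fold and 47 of 66 at 16-fold, and made 4 false calls, and DESeq2 made 58 false calls. For the BF design, with 17102 genes, limma recovered 34 of 67 at 2-fold, 61 of 67 at 4-fold and 63 of 66 at 16-fold, with 12 false calls. Changes were planted only in genes with a mean of at least 10 reads, so the recovery does not cover Tnfsf11 or Tnfrsf11a. The simulated libraries shared the same composition but were scaled for limma by the real factors. The recovery by limma on the data may therefore differ, above all in BMSC.

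The genes and lists were chosen with earlier results of these data known, so they are no independent evidence. All 8 genes were named, then up to 4 genes of each list with the smallest adjusted p, then Csf1, Csf1r, Traf6, Ctsk, Mmp9, Itgb3, Atp6v0d2 and Irf8, and the 3 nearest profiles of each gene with a mean of at least 10. Spi1, Mitf, Tfe3, Tyrobp, Trem2, Slc4a2, Ckb, Ptger2, Ptger4, Il1a and Lif were named after their values were seen. Another gene that the rule names is not reported here.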

Additional observations from a re-analysis of the deposited data

How the results depend on the processing

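Over all alternatives that gave a value, the 5 genes kept their sign in BMSC-CT against BMSC-C: Tnfrsf11a ran between -2.09 and -0.60 and Tnfsf11 between -4.52 and -0.66. Leave-one-out fits called 0 to 1 of them higher and 0 to 2 lower. Over all genes they called 249 to 3269 higher and 487 to 3935 lower, each with an arm of 2 libraries, and the highest counts came without BMSC-CT replicate 3. The genes called lower were 2 with quantile normalization, a pseudocount of 5 or DESeq2. Of all genes, 790 were higher with total-read scaling, 2695 with DESeq2 and 2060 with the length trend removed. Whether the replicate numbers pair the samples was not settled. Correlations of same-numbered BMSC libraries were 0.284, -0.028 and 0.261, against at most 0.038, 0.140 and -0.010 with a control of another number. The same-numbered value was thus the higher for numbers 1 and 3 and not for 2. In BF they were 0.012, 0.009 and -0.021, against at most 0.0075, 0.028 and 0.040. With the replicate number as a block, Acp5 (adjusted p = 0.0233, limma) and Tnfrsf11b (0.0239) kept their calls. Of the other called genes, Irf8 (0.0537), Slc4a2 (0.0540), Ramp2 (0.0551), Ptger4 (0.0560) and Syk (0.0586) lost theirs under the block, Cyld (0.0354), the Rbpj ID with many reads (0.0373) and Traf2 (0.0495) gained one, and 1315 genes were higher and 1688 lower.

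In BF-D against BF-C no alternative called any of the 3 genes, and DESeq2 gave Tnfsf11 no adjusted p. Of all genes, 2 were higher with quantile normalization, 0 higher and 0 lower with a mean of at least 10, edgeR or the replicate block, 37 higher and 33 lower with DESeq2, and 10 and 5 with the length trend removed. Leave-one-out fits called 0 to 125 higher and 0 to 139 lower.

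Signs turned for uncalled genes, given with their leave-one-out range. In BMSC, Atp6v0d2 was at -0.23 with total-read scaling, -0.079 with the length trend removed and -0.0085 to 0.31 leaving out 1 library. Ramp1 was at -0.22, -0.51 and -0.44 to 0.47 under the same settings. Itgb3 was at 0.074 with edgeR, 0.053 with DESeq2 and -1.25 to 0.59 leaving out 1 library, and Csf1 at 0.093 with the length trend removed. In BF, Csf1 was at -0.073 after quantile normalization and Ramp2 at -0.072 with the length trend removed. Leave-one-out ranges in BF were -0.043 to 0.091 for Csf1, -0.048 to 0.21 for Ramp2, -0.099 to 0.33 for Itgb3, -0.90 to 0.017 for Traf6, -0.022 to 0.24 for Ctsk, -0.21 to 0.0069 for Acp5, -0.11 to 0.78 for Tnfsf10 and -0.41 to 0.18 for Csf1r. The cause was not tested. Tnfsf11 in BMSC could not be tested without BMSC-C replicate 1, the only library with its reads, with a mean of at least 10 or with edgeR. Few reads also limit Tnfsf11, Tnfrsf11a and Ocstamp.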
